A study of Drosophila melanogaster with 4 samples.

Results

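Chitin is the polysaccharide that stiffens the insect cuticle and the tracheal tubes and that, in the gut, forms the peritrophic matrix around the food. The genes described here are the Drosophila genes for making, binding, deacetylating and degrading chitin, together with the mucins, the heavily glycosylated secreted proteins that accompany it. They were taken by symbol: every gene named Cht, Cda or Muc with a number, every obst and Peritrophin gene, and kkv, Gasp, verm, serp, knk, reb and exp. This rule used no measured value, but the members were chosen with earlier results of these data known. It found 44 of 14029 genes, with 79 of 30090 transcripts. Of these 44 genes, 37 had enough counts to be tested, among 11539 genes tested in all.

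RNA was sequenced from pools of male third-instar larvae raised at 25 °C. The Inr-a duplication larvae (genotype pcf11/+, 2 libraries) carried 3 copies of Inr-a, also called Pcf11, a gene whose product acts in cleavage and termination of transcripts. They were the progeny without green fluorescence of w[a]; Pcf11Dup/CyO GFP males and Canton S females. The wild type larvae (genotype +/+, 2 libraries) came from the Canton S stock and carried 2 copies, so that the duplication cannot be told apart from other alleles that the fathers brought in. The comparison asks which genes change when the dosage of this regulator is raised. In whole larvae, a change in RNA per cell cannot be told apart from a change in the number of the cells that make it.

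Levels are given as CPM, a library's counts scaled to a fixed total. The deposited values are genotype means, from which whole counts per library could be worked out. Total counts were 15423445 (library A) and 14084653 (library B) in the Inr-a duplication, and 12558720 (library A) and 11304266 (library B) in wild type, the letters being given by depth. Pcf11 itself had 83.3 and 95 CPM in the Inr-a duplication and 60.4 and 58 CPM in wild type, a log2 fold change of 0.62 ± 0.26 (SE) whose adjusted p was 0.179 with limma. All fold changes below are log2 values of Inr-a duplication minus wild type from limma, on log2 of scaled CPM plus 0.5, with 2 libraries per genotype and the p-value adjusted over all 11539 genes. The authors describe the libraries as biological replicates. An exact permutation test of 2 against 2 libraries cannot give a two-sided p below 0.333. The variance behind each SE and p-value is drawn by limma towards the trend over all genes. An SE is thus not the spread of that gene's own libraries alone.

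Insect chitin is polymerized at the apical membrane by a chitin synthase, is bound and arranged by secreted proteins with chitin-binding domains, and is modified by deacetylases. At each molt the old cuticle is broken down by chitinases while the new one is laid down below it. Peritrophins and mucins coat the gut lining, and mucins are also made by the salivary glands.

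The chitin genes that passed the test all had higher RNA levels in the Inr-a duplication. They were Peritrophin-A, obst-E, Cht7, serp and Muc11A, 5 of 37 genes tested (13.5%), with fitted folds from 2.15 to 2.92. In the same test 1.73% of all genes were called higher and 0.503% lower, and no chitin gene was called lower. Without adjustment, 16 of the 37 (43.2%) had a p below 0.05 and a higher level, against 12.2% of all genes. No chitin gene had such a p with a lower level, against 8.62% of all genes. The 16 include Muc96D, Muc26B and Muc55B, whose libraries overlapped between genotypes. The median log2 fold change was 0.45 for the 37 chitin genes and 0.02 for all genes tested, with 28 of the 37 above 0 and 9 below.

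In 18 of the 37 genes (48.6%) the genotypes did not overlap in scaled CPM and the Inr-a duplication was the higher, against 27.0% of all genes. Only Cht4 had both below, against 26.7% of all genes. In CPM before scaling these counts were 16 and 4 chitin genes, against 2647 and 3499 of all 11539 genes. Cht9 and obst-I then overlapped between genotypes, and Cht2, Cht11 and obst-J joined Cht4 in lying below wild type. Summed over all 44 genes, the level was 2327 and 2592 CPM in the Inr-a duplication, against 1997 and 1888 CPM in wild type. The count of 5 depended on the libraries: it was 11 without Inr-a duplication library A, 3 without library B, 9 without wild type library A and 5 without wild type library B. The share of all genes called higher moved too, in the same order of settings 4.93%, 0.884%, 3.87% and 1.67%. Here and below, a genotype left with 1 library was assumed to vary like the other genotype. No transcript was called when limma was run on single transcripts, where the lowest adjusted p of a chitin transcript was 0.185. In that run, 8 of 54 chitin transcripts and 1349 of all 20110 were higher at an unadjusted p below 0.05.

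**Figure D1:**
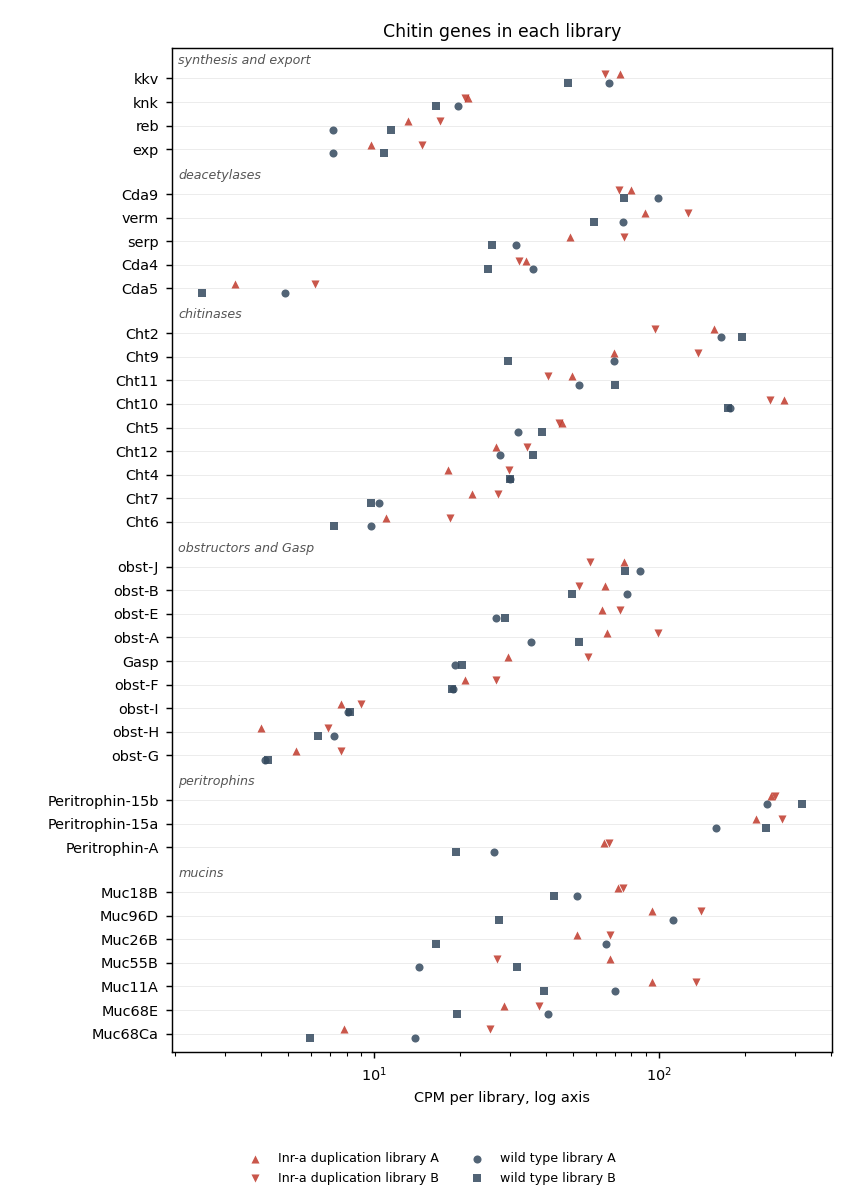
CPM (log axis) of the 37 chitin genes tested in each library, by role, with the Inr-a duplication as red triangles above the wild type in dark blue circles and squares. Peritrophin-A, obst-E, Cht7, serp and Muc11A had both red points to the right of both blue ones, while the wild type points of Muc96D and Muc26B were far apart.

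**Figure D2:**
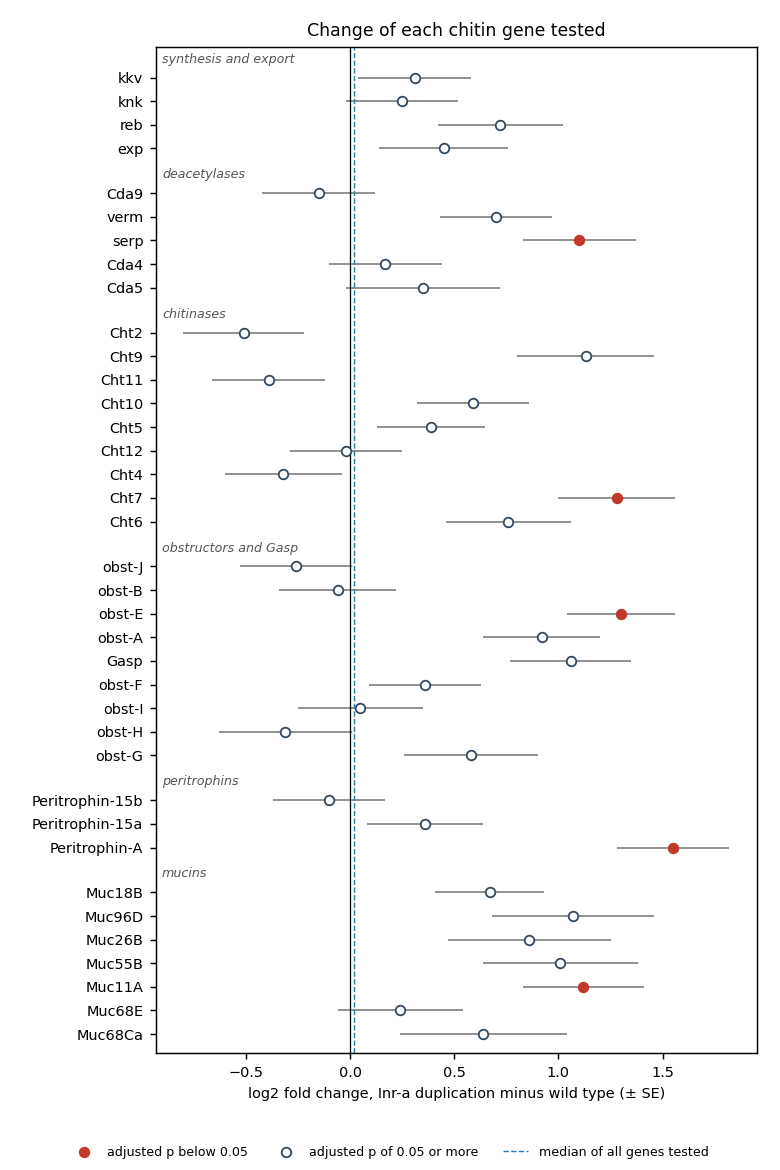
Log2 fold change of each chitin gene tested (Inr-a duplication minus wild type) with its standard error from limma, by role. The 5 filled points passed an adjusted p of 0.05, 28 of 37 points lie above 0, and the dashed line is the median of all genes tested, 0.02.

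The synthesis and export genes were all above 0 in log2 fold change, and none of the 4 passed the test (median 0.38). The gene kkv encodes the chitin synthase of the cuticle and trachea. It had 72.8 and 64.6 CPM in the Inr-a duplication and 66.7 and 47.8 CPM in wild type, so that the genotypes overlapped, with a log2 fold change of 0.31 ± 0.27 (adjusted p = 0.523). One transcript, FBtr0078800, gave 82.4% of its RNA in the Inr-a duplication and 82.1% in wild type. The gene knk, for a membrane-anchored protein that protects new cuticular chitin, had 21.3 and 20.9 CPM in the Inr-a duplication and 19.7 and 16.5 CPM in wild type, a log2 difference of 0.25 ± 0.27 with an adjusted p of 0.62. Both Inr-a duplication libraries were just above both wild type libraries. In knk, 1712 exonic bases also lie on the opposite strand of an annotated antisense RNA that the deposited table does not list, and the strandedness of the libraries is not given in the sources used here.

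The genes reb and exp encode related proteins needed for the deposition of chitin, and lie 26778 bases apart on chromosome 2R. For reb the Inr-a duplication libraries had 13.1 and 17 CPM and the wild type libraries 7.17 and 11.5 CPM, with no overlap (log2 fold change 0.72 ± 0.30, unadjusted p = 0.0256, adjusted p = 0.183). For exp the values were 9.73 and 14.7 CPM against 7.17 and 10.8 CPM in wild type, which overlapped (0.45 ± 0.31, adjusted p = 0.397).

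Among the deacetylases, which turn chitin into partly deacetylated chitosan, serp rose. It encodes a secreted deacetylase that limits the length of tracheal tubes. The Inr-a duplication libraries had 48.8 and 75.6 CPM and the wild type libraries 31.5 and 26 CPM, and the log2 fold change was 1.10 ± 0.27 (adjusted p = 0.0293). All of the Inr-a duplication values lay above those of wild type, with library B the higher. The call was lost when the B library of the Inr-a duplication was left out (0.86, adjusted p = 0.346) or that of wild type (0.95, adjusted p = 0.172). The transcript FBtr0333862 carried 99.8% of serp RNA in the Inr-a duplication and 94.5% in wild type. The other transcript, FBtr0074953, had 0 and 4 counts in the Inr-a duplication, against 26 and 12 counts in wild type (adjusted p = 0.44 among transcripts).

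The partner of serp, verm, acts with it in the trachea and lies 5717 bases away on chromosome 3L (serp 19700977 to 19708015, verm 19690033 to 19695260, BDGP6.54). It had 89.4 and 126 CPM in the Inr-a duplication, against 74.5 and 59.3 CPM in wild type. The genotypes did not overlap, and the log2 fold change of 0.70 ± 0.27 had an unadjusted p of 0.0139 and an adjusted p of 0.143. Its 2 main transcripts gave ratios of means of 1.5 and 1.73. Cda9, a deacetylase of the same family, had 79.9 and 72.5 CPM in the Inr-a duplication and 99.2 and 75.5 CPM in wild type (-0.15 ± 0.27, adjusted p = 0.771). Cda4 and Cda5 had log2 fold changes of 0.17 and 0.35, and both overlapped between genotypes. The 5 deacetylases had a median of 0.35.

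The chitinases moved both ways, with 5 of the 9 tested above 0 and 4 below, and a median of 0.39. Cht7 was the one that passed the test. It belongs to the chitinases with more than a single catalytic domain and in the beetle Tribolium its counterpart is needed to organize cuticular chitin. It had 22.1 and 27.2 CPM in the Inr-a duplication, against 10.4 and 9.73 CPM in wild type. Both Inr-a duplication values were thus more than double either wild type value, with a log2 fold change of 1.28 ± 0.28 (adjusted p = 0.0119). Cht7 lies on chromosome 3L from 3090985 to 3106958 on the minus strand, has 1 transcript, and lost its call without Inr-a duplication library B (1.20, adjusted p = 0.131).

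Cht10 and Cht5 belong to the chitinases that insects such as Tribolium need for molting. Cht10 had 274 and 246 CPM in the Inr-a duplication, against 178 and 175 CPM in wild type. The log2 fold change was 0.59 ± 0.27 (unadjusted p = 0.0373, adjusted p = 0.213), and the libraries of the genotypes did not overlap. Its transcript FBtr0331165 had 367 and 390 counts in the Inr-a duplication and 0 and 99 counts in wild type, while FBtr0111127 had 3802 and 3074 counts against 2235 and 1883 counts in wild type. These transcripts differ little in length (7180 and 7096 bases), and how Salmon shared reads between them was not tested. Cht5 had 45.8 and 44.5 CPM in the Inr-a duplication and 32 and 38.7 CPM in wild type (0.39 ± 0.26, adjusted p = 0.397), without overlap. Cht6, a very long chitinase gene product with 7 annotated transcripts, had 11 and 18.5 CPM in the Inr-a duplication and 9.71 and 7.25 CPM in wild type (0.76 ± 0.30, unadjusted p = 0.02, adjusted p = 0.166), without overlap, and shares 521 exonic bases with an antisense RNA.

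Cht4, Cht8, Cht9 and Cht12 form a cluster on chromosome 2R in which neighbours lie at most 905 bases apart, and their levels did not move together. Cht9 had 69.2 and 137 CPM in the Inr-a duplication and 69.4 and 29.5 CPM in wild type. Library A of the Inr-a duplication and library A of wild type were thus nearly equal, and the log2 fold change of 1.13 ± 0.33 (unadjusted p = 0.00256, adjusted p = 0.0721) rested on both B libraries, which differed in opposite directions. Leaving out the B library of the Inr-a duplication gave 0.71 (adjusted p = 0.557) and leaving out that of wild type gave 0.50 (adjusted p = 0.559). Leaving out either A library gave 1.53 and 1.74, and Cht9 was then called higher. Cht4 had 18.2 and 29.7 CPM in the Inr-a duplication and 29.9 in each wild type library (-0.32 ± 0.28, adjusted p = 0.517). Cht12 was almost level (-0.02 ± 0.27), with 26.7 and 34.4 CPM against 27.6 and 36 CPM in wild type. Cht8 was too low to be tested, with 1 and 1 counts in the Inr-a duplication and 9 and 4 counts in wild type. Of these genes, Cht9 shares 893 exonic bases with an antisense RNA, and Cht8 and Cht12 overlap by 35 bases.

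Cht2 and Cht11 were lower in log2 fold change. Cht2, a chitinase linked to cuticle formation, had 156 and 96.5 CPM in the Inr-a duplication and 165 and 195 CPM in wild type (-0.51 ± 0.29, adjusted p = 0.302). Inr-a duplication library B carried most of this difference, since without library A Cht2 was called lower (-0.95, adjusted p = 0.0307) and without library B the value was -0.10. Cht11 had 49.5 and 40.7 CPM in the Inr-a duplication and 52.3 and 69.9 CPM in wild type (-0.39 ± 0.27, adjusted p = 0.403).

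The obstructors are secreted proteins with chitin-binding domains. Of the 9 genes obst-A, -B, -E to -J and Gasp, 6 (66.7%) did not overlap in scaled CPM with the Inr-a duplication higher. Over all genes this share was 27.0%. Among the 6, obst-I had a log2 fold change of 0.05 and overlapped in CPM before scaling. The count was then 5, against 2647 of all 11539 genes. The median of the 9 was 0.36, and obst-E passed the test. obst-E is known for shaping the larval cuticle before the body shortens into the puparium. It had 63 and 72.9 CPM in the Inr-a duplication, against 26.8 and 28.8 CPM in wild type. Neither genotype's libraries differed much between themselves, and the log2 fold change was 1.30 ± 0.26 (adjusted p = 0.00582). Its 2 transcripts moved alike, with ratios of means of 2.47 and 2.14. The gene lies on chromosome 2L from 5762553 to 5766142 on the minus strand, and its call held without each library in turn (1.25 to 1.34, adjusted p from 0.0031 to 0.0156).

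Gasp, a chitin-binding protein of the tracheal lining, was just outside the threshold. Its libraries had 29.6 and 56.2 CPM in the Inr-a duplication and 19.2 and 20.3 CPM in wild type (1.06 ± 0.29, unadjusted p = 0.00113, adjusted p = 0.0502). The genotypes did not overlap, and both transcripts had ratios of means above 1 (2.42 and 1.74). obst-A, which organizes chitin in the assembly zone of the larval cuticle, had 65.5 and 98.9 CPM in the Inr-a duplication and 35.4 and 52.5 CPM in wild type. It did not overlap between genotypes either, with a log2 fold change of 0.92 ± 0.28 (unadjusted p = 0.00276, adjusted p = 0.0738). Leaving out the A library of the Inr-a duplication gave 1.43 for Gasp and 1.13 for obst-A. Without its B library the values fell to 0.67 and 0.70. Without wild type library A they were 1.03 and 0.64, and without wild type library B 1.08 and 1.19.

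The other obstructors were flatter. obst-J had 75.3 and 57.2 CPM in the Inr-a duplication and 85.4 and 75.8 CPM in wild type (-0.26 ± 0.27, adjusted p = 0.597), and obst-B had 64.4 and 52.3 CPM against 77.2 and 49.4 CPM in wild type (-0.06 ± 0.28, adjusted p = 0.932). obst-F, obst-G, obst-H and obst-I had log2 fold changes of 0.36, 0.58, -0.31 and 0.05, with adjusted p from 0.294 to 0.942. Within this family the 3 genes with the highest fold changes, obst-E, Gasp and obst-A, all belong to the better conserved group of obstructors, which obst-B shares.

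Peritrophin-A had the highest log2 fold change of all chitin genes and is itself a member of that obstructor group. Its libraries had 64.3 and 66.5 CPM in the Inr-a duplication, against 26.3 and 19.3 CPM in wild type. The Inr-a duplication libraries were nearly equal and more than double either wild type library, with a log2 fold change of 1.55 ± 0.27 (adjusted p = 0.00133). The main transcript, FBtr0077335, carried 95% of its RNA in the Inr-a duplication and 96.1% in wild type. Without each library in turn the value was 1.31 to 1.77 (adjusted p from 7.95e-05 to 0.0174). Peritrophin-A lies on the X chromosome from 20244647 to 20248203, 1438 bases from obst-A, so that this pair of neighbours lay above wild type together.

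Peritrophin-15a and Peritrophin-15b are named after small peritrophic matrix proteins of blowflies and lie 725 bases apart on chromosome 2L. They had the highest levels per length of the family, with genotype means of 677 and 707 CPM per kilobase in the Inr-a duplication and 547 and 776 CPM per kilobase in wild type. Peritrophin-15a had 218 and 271 CPM in the Inr-a duplication and 158 and 237 CPM in wild type (0.36 ± 0.28, adjusted p = 0.464). Peritrophin-15b had 248 and 255 CPM in the Inr-a duplication and 240 and 318 CPM in wild type (-0.10 ± 0.27, adjusted p = 0.862). Both overlapped between genotypes. All 428 bases of the longest Peritrophin-15b transcript lie opposite an annotated antisense RNA.

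The mucins had the highest median of any role, 0.86 over the 7 tested, and all 7 were above 0. That median is the value of Muc26B, which was -0.13 without wild type library B. In 2 of the 7 (28.6%) the genotypes did not overlap and the Inr-a duplication was higher, against 27.0% of all genes. Muc11A rose, with 94.1 and 135 CPM in the Inr-a duplication, against 70 and 39.5 CPM in wild type. The genotypes did not overlap, and the log2 fold change was 1.12 ± 0.29 (adjusted p = 0.0379). It was not called when the B library of the Inr-a duplication was left out (0.94, adjusted p = 0.154) or that of wild type (0.70, adjusted p = 0.395). Muc18B was the steadiest within each genotype, with 71.5 and 74.8 CPM in the Inr-a duplication and 51.4 and 42.7 CPM in wild type (0.67 ± 0.26, unadjusted p = 0.0168, adjusted p = 0.156).

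In the other mucins tested, the libraries of the genotypes overlapped. Muc96D had 94.7 and 140 CPM in the Inr-a duplication and 112 and 27.5 CPM in wild type (1.07 ± 0.39, unadjusted p = 0.0117, adjusted p = 0.134). Muc26B had 51.5 and 67 CPM in the Inr-a duplication and 65.1 and 16.5 CPM in wild type (0.86 ± 0.39, unadjusted p = 0.0351, adjusted p = 0.208). In both genes wild type library B was alone at a low level. Without it the log2 fold change was 0.05 for Muc96D and -0.13 for Muc26B, and without wild type library A it was 2.08 and 1.84. Both genes were called higher when either A library was left out. Muc68E had 28.6 and 37.8 CPM in the Inr-a duplication and 40.6 and 19.6 CPM in wild type (0.24 ± 0.30), and Muc68Ca had 7.85 and 25.4 CPM against 13.9 and 5.93 CPM in wild type (0.64 ± 0.40). Muc55B ran the other way, with 67.4 and 26.9 CPM in the Inr-a duplication and 14.4 and 31.8 CPM in wild type (1.01 ± 0.37, unadjusted p = 0.0124, adjusted p = 0.137), so that Inr-a duplication library A was the one that stood out. Leaving out that library gave 0.26, and leaving out the B library of the Inr-a duplication gave 1.73. Without the B library of wild type the value was 1.55. Each of these fits left 1 library in a genotype, which was assumed to vary like the other genotype.

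Among the 37 chitin genes, 2 differed by more than 2-fold within the Inr-a duplication and 6 within wild type, with Muc68Ca (3.24-fold) and Muc96D (4.07-fold) the widest. Over all genes tested these shares were 5.65% and 6.36%. The salivary glue gene Sgs1 had 282 and 519 CPM in the Inr-a duplication and 519 and 101 CPM in wild type, the order of libraries, within each genotype, that Muc11A, Muc18B, Muc26B, Muc68Ca, Muc68E and Muc96D also had in CPM. Among the mucins tested, only Muc55B had another order, and scaling turns the order of the Inr-a duplication libraries round for Muc18B. Outside the mucins, serp, verm, Cda5, Cht6, Cht7, Cht9, obst-F, obst-H and Peritrophin-A had the order of Sgs1 in CPM too. Scaling turns the order of the Inr-a duplication libraries round for Peritrophin-A as well. Of the chitin genes called higher, only obst-E had another order in CPM. In scaled CPM, Inr-a duplication library B was above library A in 23 of 37 chitin genes and 5792 of all 11539 genes. Wild type library A was above library B in 23 of 37 and 5698 of 11539. The part of this order of libraries in the mucin values was not tested.

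**Figure D3:**
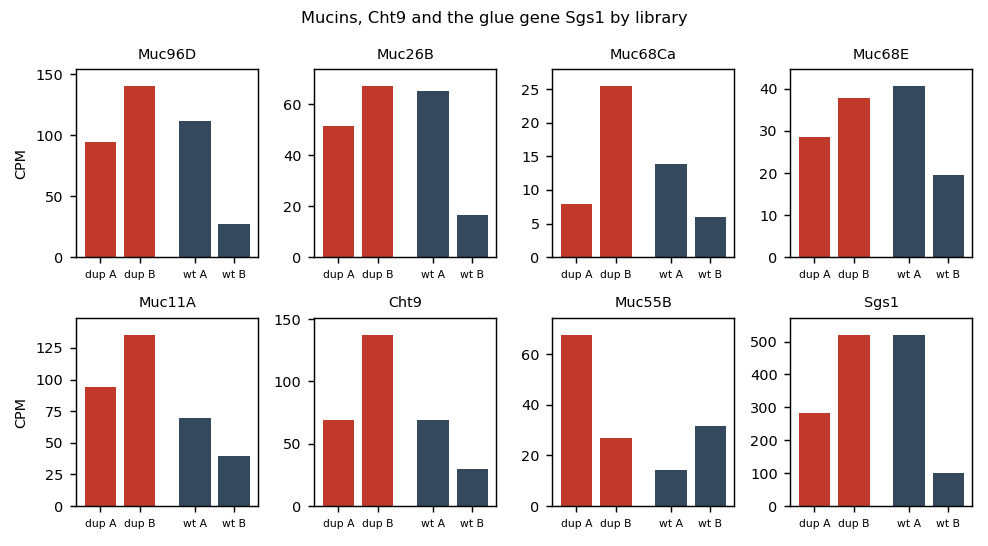
CPM of 5 mucins, Cht9, Muc55B and the glue gene Sgs1 for the Inr-a duplication (dup A and dup B, red) and wild type (wt A and wt B, blue), each panel with its own axis from 0. Wild type library B was the lower wild type library in every panel but that of Muc55B, where Inr-a duplication library A stood out at 67.4 CPM.

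The remaining mucins, Muc4B, Muc12Ea, Muc14A, Muc30E, Muc68D and Muc91C, were at or near 0 in whole larvae and were not tested. Muc30E had 1 and 3 counts in the Inr-a duplication and 12 and 3 counts in wild type. Muc14A had 6 and 6 counts in the Inr-a duplication and 2 and 0 counts in wild type. The other 4 had at most 3 counts in any library.

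Of 26 other genes of chitin metabolism and the apical matrix, 23 could be tested and 0 were called in either direction with limma, with a median log2 fold change of 0.18. At an unadjusted p below 0.05, 7 of the 23 were higher and 0 lower, against 12.2% and 8.62% of all genes. The chitinase-like growth factors Idgf6 and Idgf4 had 0.96 (adjusted p = 0.0721) and 0.76 (adjusted p = 0.146). The other members of that group, Idgf1, Idgf2, Idgf3 and Idgf5, had -0.12, 0.14, 0.18 and 0.10. The hexosaminidase genes Hexo1, Hexo2 and fdl had -0.39, -0.31 and 0.64. The protease gene teq, whose product has chitin-binding domains, had 0.95 (adjusted p = 0.0755). Gfat1, the entry enzyme of the pathway to UDP-N-acetylglucosamine, the sugar donor of chitin synthesis, had 0.72 (adjusted p = 0.123). mmy, the last enzyme of that pathway, had -0.41 (adjusted p = 0.373), and the 5 precursor genes had a median of -0.12. Chs2, the chitin synthase of the gut, had 20.3 and 17.3 CPM in the Inr-a duplication and 14.5 and 11.7 CPM in wild type, with a log2 fold change of 0.54 (adjusted p = 0.272).

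Other markers of stage and tissue also differed between genotypes. The larval cuticle protein genes Lcp3, Lcp4 and Lcp9 all rose, by 2.73, 1.88 and 2.63 on the log2 scale, 3 of the 3 tested. Of 17 ecdysone response genes, 10 had both Inr-a duplication libraries above wild type in scaled CPM and 1 below (27.0% and 26.7% of all genes), ImpL2 was called higher (0.99, adjusted p = 0.0412), and EcR had 0.99 (adjusted p = 0.0523). Pcp, a pupal cuticle gene, had 606 and 343 CPM in the Inr-a duplication and 716 and 1134 CPM in wild type, with a log2 fold change of -0.95 (adjusted p = 0.116). Edg91, the other pupal cuticle gene tested, had 0.29 (adjusted p = 0.629). Of 9 midgut genes tested, 2 were called higher (1.73% of all genes), and of 4 tracheal and 6 testis genes 0 were called, with 1 tracheal gene higher and 3 testis genes lower at an unadjusted p below 0.05 (12.2% and 8.62% of all genes). The glue and fat body lists could be read nearly only as genotype means. Their sums were 26031 and 75810 CPM in the Inr-a duplication and 24010 and 65371 CPM in wild type. Lsp1alpha, Lsp1beta and Lsp1gamma had 4878, 14839 and 6373 CPM in the Inr-a duplication and 1542, 7004 and 1403 CPM in wild type. Lsp2 was at 24750 against 22171 CPM, while Fbp1 and Fbp2 were lower, at 21196 and 3775 against 28992 and 4259 CPM in wild type. Among the glue genes, Sgs4 had 2635 against 1284 CPM in wild type, and only Sgs8 was lower, at 6298 against 7358 CPM. The part of stage or tissue in the chitin gene values was not tested.

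Across all genes the fold change moved with the length of the longest transcript. In 4 groups of about equal size, from the shortest to the longest transcripts, log2 fold changes over all genes had medians of -0.21, -0.13, 0.08 and 0.35, and those of the chitin genes had medians of 0.36, 0.32, 0.70 and 0.59 (7, 12, 9 and 9 genes). The called genes lie across this range, with obst-E at 998 bases, Peritrophin-A at 1406, serp at 2541, Cht7 at 3953 and Muc11A at 4865 bases. With the length trend taken out of each library, an alternative chosen after seeing the data, 5 chitin genes were again called higher and 0 lower. These were Peritrophin-A, obst-E, Cht7, serp and Gasp (1.14, adjusted p = 0.0293), whereas Muc11A had 0.77 (adjusted p = 0.108), and the median of the 37 was 0.29.

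**Figure D4:**
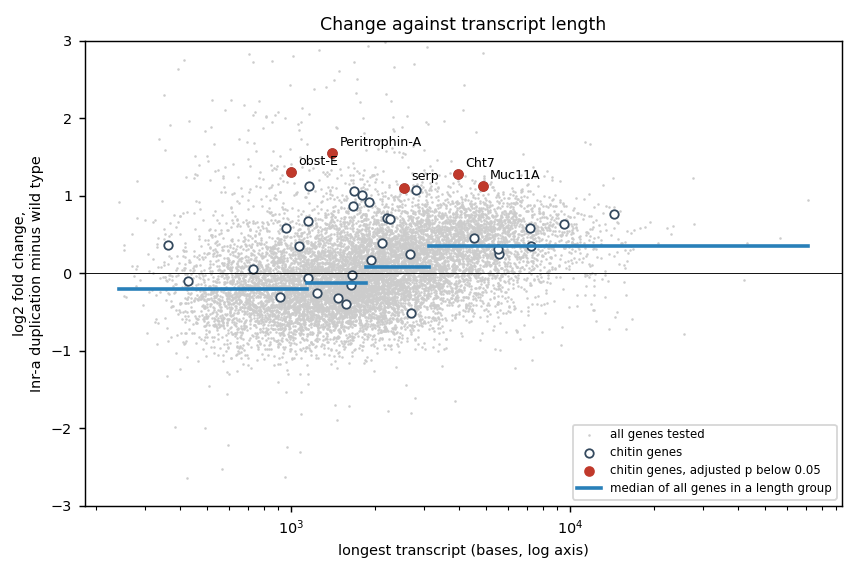
Log2 fold change (Inr-a duplication minus wild type) against the length of the longest transcript in bases (log axis), with all genes tested in grey, chitin genes as circles and the 5 called ones in red. Blue lines are the medians of all genes in 4 length groups, from -0.21 to 0.35; 21 genes outside -3 to 3 are not drawn, none of them a chitin gene.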

How the data were processed

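RNA of male third-instar larvae was sequenced as 2 libraries per genotype. The authors trimmed reads with Trimmomatic, quantified transcripts with Salmon (1.4.0, BDGP6) and deposited, per transcript, a mean CPM for either genotype together with the ratio of these means, the authors' own comparison, which was not used. Since a mean CPM fixes its pair of whole counts once both library totals are known, counts per library were recovered: 99.7% of Inr-a duplication and 99.4% of wild type transcripts above 0 had 1 pair. The recovery was tested on simulated data. All chitin genes had 1 pair, and 129 genes with several pairs were left out. Transcripts were summed by symbol. Genes with 10 counts at the median library size in 2 libraries and 15 in all entered limma-trend (limma 3.58.1 in R 4.3.3). It was fitted to TMM-scaled CPM, as log2 after adding 0.5. P-values were adjusted by Benjamini-Hochberg, and 0.05 was the threshold. Alternatives were other scalings, pseudocounts (0.1, 2), filters, limma-voom, single transcripts, each library left out, and transcript length removed (lowess, span 0.3). Positions come from Ensembl BDGP6.54. Members and lists were chosen with earlier results of these data known. By rule, values per library were given for genes with an unadjusted p below 0.05 and for the most abundant genes per length of each role. Those of exp, Cht4, Cht5, Cht11, Cht12, Muc68E and Muc68Ca, and the counts of genes too low to test, were added after their values were seen. Other chitin pathway genes were planned as counts only, so the values of those named singly are an addition to the plan. Tables were joined in pandas 2.3.3 under Python 3.11.15, and figures were drawn with matplotlib 3.10.9.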

Additional observations from a re-analysis of the deposited data

How the results depend on the processing

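Over 12 alternatives at gene level, Peritrophin-A and obst-E passed the threshold every time, Cht7 in 9, serp in 8, Muc11A in 7 and Gasp in 5. With library size in place of TMM, 0.511% of all genes were called higher, against 1.73% in the main test. With no filter on low counts it was 0.342%, and with transcripts in place of genes 0 of 20110 transcripts. The number of chitin genes called higher was 2, 2 and 0 in these settings. It was 3 to 11 when 1 library was left out, and the number called lower was then 0 to 1. Over the same leave-outs the log2 fold change changed sign for obst-J (-0.55 to 0.01), obst-B (-0.39 to 0.27, with 0.16 without Inr-a duplication library B), Cda9 (-0.36 to 0.05), Peritrophin-15b (-0.30 to 0.08) and Muc26B (-0.13 to 1.84). With the transcript length trend removed it was -0.07 for kkv, 0.12 for obst-B and 0.08 for Peritrophin-15b. The causes of these changes were not tested. Of 288 values for 24 named genes, 251 kept direction and side of the threshold. Where 1 library was left alone in its genotype, it was assumed to vary like the other genotype. No paired analysis was possible because the recovered libraries carry no replicate number. With 2 libraries per genotype, and below about 10 counts per library, smaller differences were not detectable.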
